A study of Homo sapiens with 2 samples.

Results

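In both single-cell libraries a minority of barcodes held few transcripts, and these shallow barcodes were compared with the deeper barcodes around them. A barcode tags the RNA captured in 1 droplet, and a UMI tags 1 captured RNA molecule. They were chosen by their totals, as the barcodes with 200 or more detected genes, at most 20% of UMIs from mitochondrially encoded genes and fewer than 4400 UMIs in total. This gave 173 shallow barcodes of 1905 kept barcodes and of 1940 barcodes in all. The control library held 90 of 1053 kept barcodes (8.55%, 95% exact binomial interval 6.93 to 10.4), and the SP11 library held 83 of 852 (9.74%, 7.83 to 11.9). The other 963 control and 769 SP11 kept barcodes are called deep. Control cells were untreated, and SP11 cells received 0.8 µM of SP11 for 48 h, an inhibitor of the chaperone HSP90. The labels give the cells as MOLT4, an established human cell line from T-cell acute lymphoblastic leukemia, and no genotype other than the line's own. Each group was 1 library, so nothing below has a replicate check, no test between groups or barcodes was possible, and all intervals cover counting error only.

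A droplet can yield few UMIs because it caught a small cell, because it caught a cell that had lost part of its RNA, or because it caught RNA free in the suspension. A cell whose outer membrane has opened loses soluble cytosolic mRNA, such as that of ribosomal proteins, while RNA held in the nucleus or inside mitochondria stays longer. A cytoplasmic fragment without a nucleus has the opposite content, with little nuclear RNA. MALAT1 and NEAT1 are long noncoding RNAs that stay in the nucleus, in speckles and paraspeckles respectively, and FTH1 and FTL encode the heavy and light chains of ferritin, the cytosolic iron store. On GRCh38, MALAT1 lies at chr11:65497640-65508073 and NEAT1 at chr11:65422774-65445540, both on the plus strand and annotated as noncoding genes. FTH1 lies at chr11:61959718-61967634 on the minus strand, and FTL at chr19:48965309-48966879 on the plus strand, both protein-coding.

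The rule used total UMIs, detected genes and the mitochondrial share, so depth is a description of the members and not a finding. Shallow barcodes had a median of 873.5 UMIs in control (range 500 to 4274) and 2063 in SP11 (531 to 4399), against 18250 and 11222 in deep barcodes. They held 0.596% of the UMIs of kept barcodes in control and 1.94% in SP11. The last barcode inside the limit held 4274 UMIs in the control library and 4399 in the SP11 library, and the first outside it had 4507 and 4413. Another 23 control and 12 SP11 barcodes exceeded the mitochondrial limit, of which 8 and 6 had under 4400 UMIs. Scrublet, which looks for droplets with more than 1 cell, marked 0 shallow barcodes in either library. Of the barcode sequences, 114 occurred in both libraries, among them 9 shallow control and 10 shallow SP11 barcodes, and 21 and 6 shallow barcodes lay 2 mismatches from a deep barcode of their own library.

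The labelled cell type was not visible in these barcodes. The 19 T cell markers, such as the CD3 chains, summed to 1 UMI in the shallow barcodes of each library, and deep barcodes held 2.80 CPM (counts per 1e6 UMIs) of them in control and 1.61 in SP11. Erythroid markers and fibroblast or epithelial markers were at 0 in the shallow barcodes of both libraries, where the limit is 26.0 CPM for control and 16.3 CPM for SP11, platelet markers summed to 0 and 5 UMIs, and B cell markers to 1 and 5. NK cell markers summed to 21 and 45. The monocyte or macrophage markers, by contrast, reached 494 CPM in control and 1999 in SP11, so the shallow barcodes carried myeloid transcripts like the deep barcodes of the same libraries, at 645 and 1496 CPM. A large part of the SP11 marker UMIs lay in 12 shallow barcodes rich in ferritin RNA, described below.

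UMIs were summed over the shallow and over the deep barcodes of each library and compared as the log2 ratio of CPM. A gene counted as measured with 10 or more UMIs in the shallow sum, either observed or expected from its deep CPM, which gave 2585 genes in control and 3504 in SP11. Over every measured gene the median log2 ratio was 0.03 in control and -0.01 in SP11. In the shallow control barcodes 380 measured genes (14.7%) lay 1.5-fold or more above the deep level and 547 (21.2%) as far below. In SP11, 348 (9.93%) were higher and 559 (16%) lower by that size. This fold is a size and not a test, and the counts for gene lists below are to be read against these shares.

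Mitochondrially encoded RNA was lower in the shallow barcodes of both libraries. Its 13 genes encode core subunits of the respiratory chain and are transcribed inside the organelle. The list lay at 56167 CPM in shallow and 90346 CPM in deep control barcodes, a log2 ratio of -0.69 (95% counting interval -0.72 to -0.65). In SP11 it lay at 36836 and 56422 CPM, a ratio of -0.62 (-0.65 to -0.58). The mitochondrial limit of the rule capped this share in shallow and deep barcodes alike. In control 8 of 13 measured members lay at least 1.5-fold below and 0 as far above the deep level, with a median log2 ratio of -0.76, and in SP11 6 of 11 were lower and 0 higher, with a median of -0.67. MT-ATP8, a subunit of ATP synthase, was the lowest in control at -1.53 (-2.01 to -1.09), and MT-ND2, a subunit of complex I, the lowest in SP11 at -1.01 (-1.18 to -0.85). The nuclear-encoded genes of the same chain, made in the cytosol, did not follow, with log2 ratios of 0.34 (0.28 to 0.39) in control and -0.01 (-0.05 to 0.03) in SP11. Of these 52 genes, 8 were higher and 0 lower by 1.5-fold in control, led by SDHB of complex II at 1.37 (0.84 to 1.86), and 2 were higher and 1 lower in SP11. Among all measured genes 14.7% were higher and 21.2% lower in control, and 9.93% and 16% in SP11. The count of higher members in control was thus near the share over all genes.

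**Figure D1:**
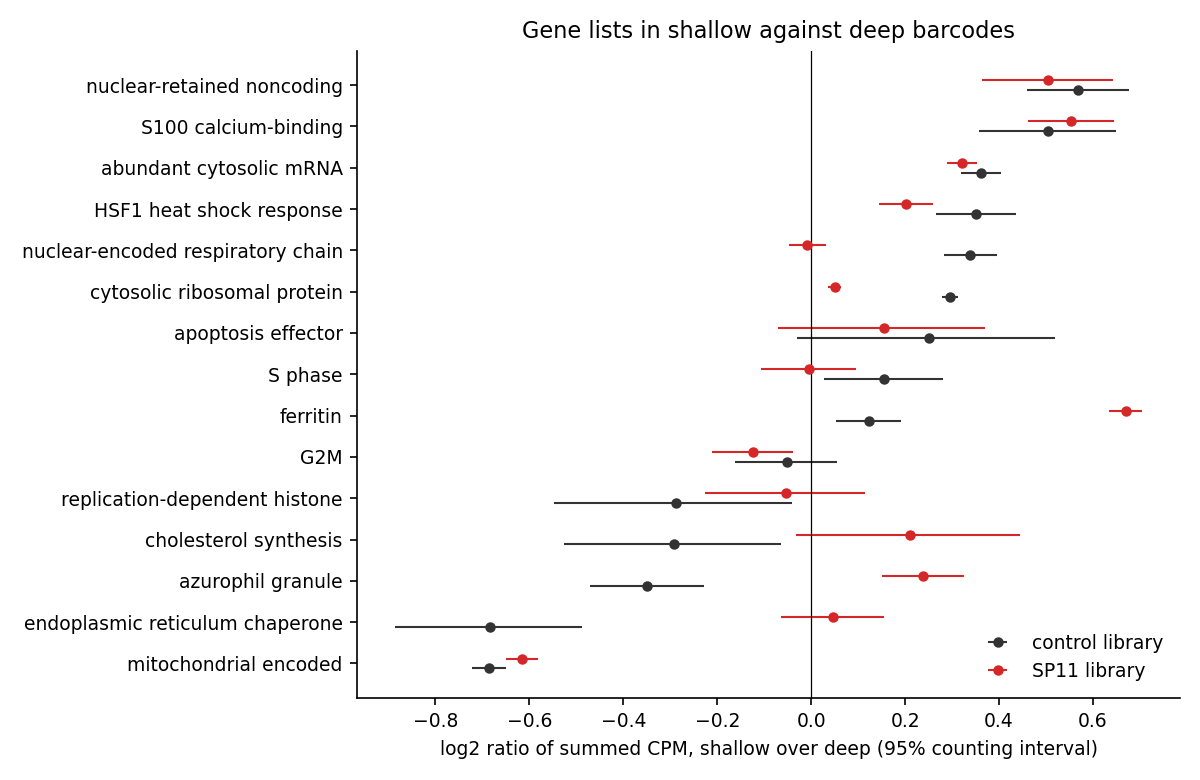
Log2 ratio of summed CPM in shallow over deep barcodes (x axis) for each gene list with 100 or more shallow UMIs in both libraries (y axis), with control in black, SP11 in red and bars for the 95% counting interval. The mitochondrial list is lowest at -0.69 and -0.62, while the granule list lies at -0.35 in control and 0.24 in SP11, and the endoplasmic reticulum chaperone list at -0.68 and 0.05.

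Nuclear-retained noncoding RNA was higher in the summed shallow barcodes, but in control this came from few of them. The list lay at 5952 CPM in shallow and 4012 CPM in deep control barcodes (log2 ratio 0.57, 0.46 to 0.68), and at 2347 and 1655 CPM in SP11 (0.50, 0.36 to 0.64). MALAT1 had 468 UMIs in the shallow control barcodes, 4055 CPM against 1878 CPM in deep ones (1.11, 0.98 to 1.24), and 309 UMIs in SP11, 1679 against 961 CPM (0.81, 0.64 to 0.97). NEAT1 did not follow, at 918 against 1265 CPM in control (-0.46, -0.75 to -0.19) and 364 against 312 CPM in SP11 (0.22, -0.15 to 0.57). Only 31 of the 90 shallow control barcodes held a MALAT1 UMI, and 391 of its 468 UMIs lay in 8 barcodes described below. When each barcode was given the same weight, the control ratio of the list turned to -0.09, and without those 8 barcodes it was -1.33.

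Summed MALAT1 also differed between depth bands of the shallow barcodes, and the control order leaned on 8 barcodes. In control it lay at 514 CPM in the 38 barcodes of 500 to 799 UMIs, 546 CPM in the 29 of 800 to 1499, 8196 CPM in the 13 of 1500 to 2999 and 6473 CPM in the 10 of 3000 to 4399. The 8 control barcodes with 391 of its 468 UMIs were spread over these bands as 0, 1, 4 and 3. They held 4 MALAT1 UMIs in the band of 800 to 1499, and 19, 50, 50 and 49 in that of 1500 to 2999. In the band of 3000 to 4399 they held 48, 91 and 80. The high control values thus rested largely on those 8 barcodes. The MALAT1 UMIs left outside them give no steady rise with depth. In SP11 it lay at 3826, 2973, 1558 and 1290 CPM over the same bands of 19, 15, 21 and 28 barcodes. In these sums, with the 8 control barcodes included, the shallowest SP11 barcodes had the most and the shallowest control barcodes the least. To compare detection at equal depth, each barcode was thinned to 500 UMIs. MALAT1 was then found in 25.6% of shallow (16.9 to 35.8) and 50.4% of deep control barcodes (47.2 to 53.6), while in SP11 it was found in 45.8% of shallow and 27.6% of deep barcodes. Without thinning, 59 of 90 shallow (65.6%) and 1 of 963 deep control barcodes had no MALAT1 UMI, against 28 of 83 (33.7%) and 68 of 769 (8.84%) in SP11. The level of free RNA was not measured here, so the part of it in these UMIs was not tested.

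**Figure D2:**
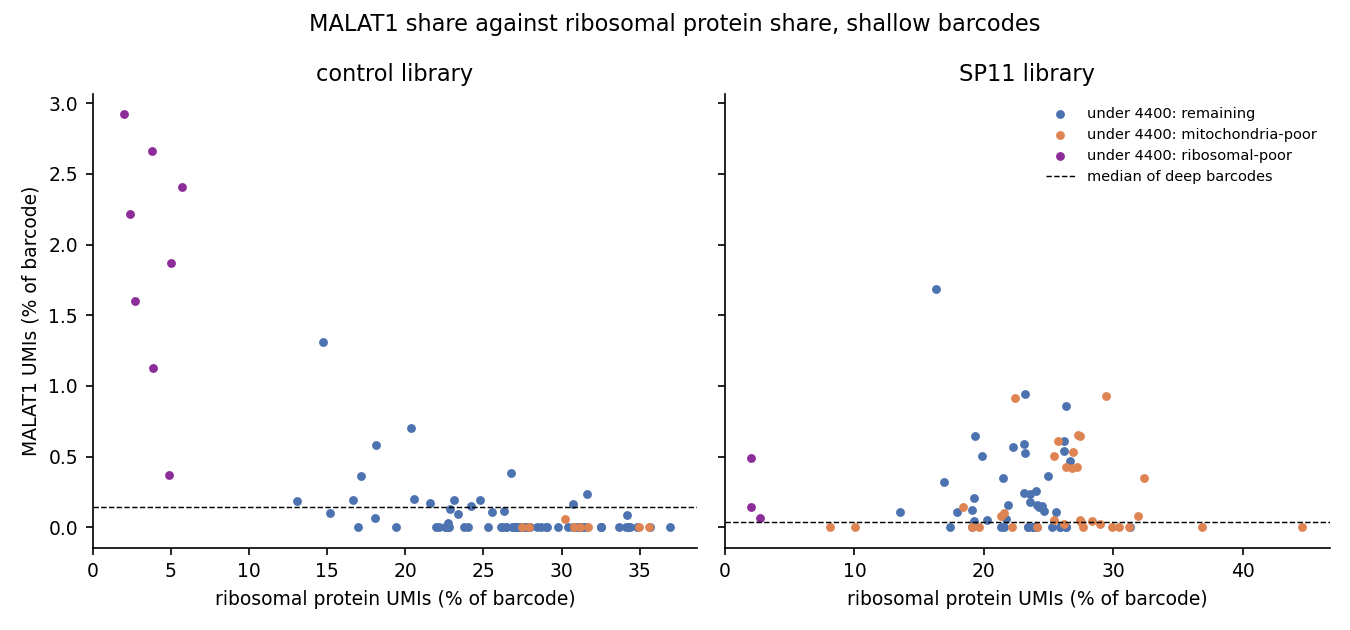
MALAT1 share of a barcode's UMIs (y axis, percent) against its share of ribosomal protein UMIs (x axis, percent) for the 90 shallow control and 83 shallow SP11 barcodes, with the deep median as a dashed line. The 8 ribosomal-poor control barcodes (purple) hold 0.367% to 2.92% MALAT1, whereas most other shallow control barcodes hold none.

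Cytosolic ribosomal protein mRNA, the largest of the lists, was higher in shallow control barcodes and close to level in SP11. Its 79 genes lay at 230879 CPM in shallow and 188168 CPM in deep control barcodes (log2 ratio 0.30, 0.28 to 0.31), and at 240678 and 232484 CPM in SP11 (0.05, 0.04 to 0.06). Each of the 79 was measured, and in control 2 passed 1.5-fold upward and 0 downward, against 0 higher and 1 lower in SP11, so the shift in control was small and spread over the list. Ribosomal protein genes have many near-identical pseudogenes, so values of single members are uncertain. RPL31 was the highest in control at 0.80 (0.60 to 1.00), and RPS2 the lowest in SP11 at -0.70 (-0.88 to -0.52). Other abundant mRNAs of the cytosol were higher in shallow barcodes of both libraries. The list of 20 that holds actin, thymosin and glycolytic genes had a log2 ratio of 0.36 (0.32 to 0.40) in control and 0.32 (0.29 to 0.35) in SP11. TMSB4X, which binds actin monomers, lay at 9036 against 5523 CPM in control (0.71, 0.62 to 0.80), and GAPDH, a glycolytic enzyme, at 6346 against 3493 CPM in SP11 (0.86, 0.78 to 0.95). Within the list 2 genes were higher and 0 lower by 1.5-fold in control, and 3 were higher and 0 lower in SP11. Over all measured genes 14.7% were higher and 21.2% lower in control, and 9.93% and 16% in SP11. The counts of higher genes in this list of 20 were thus near those shares.

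**Figure D3:**
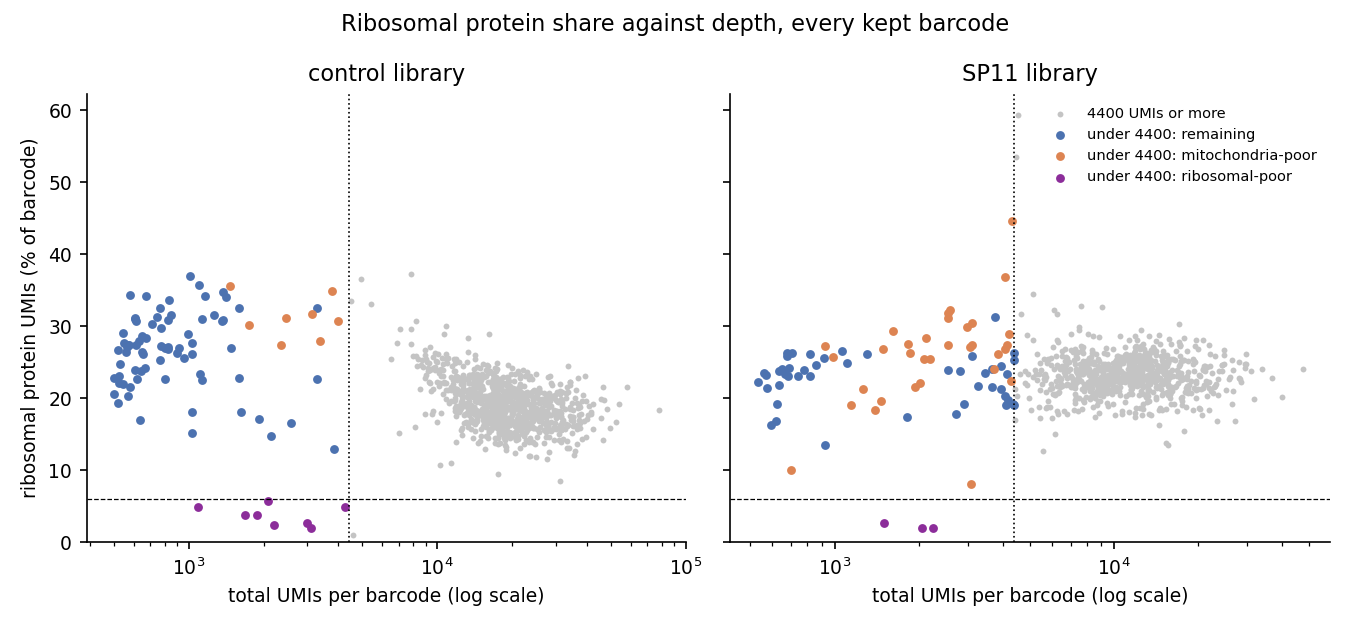
Share of ribosomal protein UMIs (y axis, percent) against total UMIs (x axis, log scale) for every kept barcode, with the 4400 UMI limit as a dotted line and 6% as a dashed line. In control 8 shallow barcodes and 1 deep barcode lie under 6%, and in SP11 3 shallow barcodes and 0 deep ones.

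The plot of ribosomal protein share by depth showed that the shallow barcodes were not of a single kind. Groups within them were then formed with limits set after these values were seen, so the shares that formed them are descriptions. Shallow barcodes with under 6% ribosomal protein UMIs are called ribosomal-poor. There were 8 in control, at 2.02% to 5.72%, with the next barcode above at 13.04%, and 3 in SP11, at 1.99% to 2.72%, with the next at 8.12%. Shallow barcodes above that limit with under 2% mitochondrial UMIs are called mitochondria-poor, of which there were 8 in control (8.89%, 3.92 to 16.8) and 33 in SP11 (39.8%, 29.2 to 51.1). Among deep barcodes the same limits took 1 and 3 of 963 in control and 0 and 10 of 769 in SP11. No gap separated the mitochondria-poor barcodes, since 5 shallow control and 15 shallow SP11 barcodes lay between 1.5% and 2.5%. The remaining shallow barcodes numbered 74 in control and 47 in SP11.

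Ribosomal-poor barcodes were rich in nuclear-retained RNA and poor in ferritin, abundant cytosolic and respiratory chain mRNA. The 8 control barcodes had 1091 to 4274 UMIs and 854 to 2386 genes, and each held MALAT1, with 4, 19, 50, 50, 49, 48, 91 and 80 UMIs in order of depth. Together they held 20225 CPM of MALAT1 against 1878 CPM in deep control barcodes, a log2 ratio of 3.43 (3.28 to 3.57). NEAT1 had 69 UMIs in them, or 3569 CPM. The other genes with the highest ratios, among 147 with 20 or more UMIs observed or expected, were SLC25A12 at 2.78, the noncoding genes DLEU1 at 2.53 and FTX at 2.500, and GABPB1-AS1 at 2.23. At the other end ACTB, cytoskeletal actin, had 1 UMI where deep barcodes had 1620 CPM, a log2 ratio of -4.97 (-10.3 to -2.49), and MIF, a cytokine, had 1 UMI and a ratio of -4.44 (-9.75 to -1.96). These genes were ranked after their values were seen.

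Whole lists in the ribosomal-poor control barcodes showed the same division. Ferritin had a log2 ratio of -2.56 (-3.02 to -2.13), abundant cytosolic mRNA -2.23 (-2.50 to -1.98), S100 genes -2.36 (-3.49 to -1.44), nuclear-encoded respiratory chain genes -1.97 (-2.29 to -1.67) and granule genes -1.09 (-1.49 to -0.71). Summed mitochondrially encoded RNA lay at -0.25 (-0.32 to -0.18), with single barcodes between 3.63% and 15.9%. The share of 15.9% belonged to the deepest of the 8, with 4274 UMIs, and the summed ratio leaned on that barcode. The median share of the 8 was 5.63%, against 9.06% in deep control barcodes. S phase genes, at 0.21 (-0.11 to 0.51), were near the deep level, and replication-dependent histone mRNA, which lacks a poly(A) tail, lay at -2.15 (-3.59 to -1.03) on 6 UMIs. The 23 control barcodes left out for a high mitochondrial share had 42122 CPM of ribosomal protein mRNA and 9563 CPM of nuclear-retained RNA, next to 37190 and 27621 CPM in the ribosomal-poor ones. In their mitochondrial share, which ran from 20.9% to 78.1%, they lay above all ribosomal-poor barcodes by the rule itself.

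The 3 ribosomal-poor SP11 barcodes had 1505, 2063 and 2252 UMIs and differed from those of control in which nuclear RNA they carried. NEAT1 had 4, 9 and 29 UMIs in them, 7216 CPM in sum against 312 CPM in deep SP11 barcodes (log2 ratio 4.53, 4.06 to 4.97). MALAT1 had 1, 3 and 11 UMIs, or 2577 CPM against 961. TRERF1, a transcriptional regulator, at 4.07 and RNF220, a ubiquitin ligase, at 3.43 were the next highest of 38 ranked genes, and ACTB was at -4.50 (-9.80 to -2.02) on 1 UMI. Ferritin lay at -3.30 (-4.21 to -2.53), and granule genes at -3.28 (-5.56 to -1.73) on 3 UMIs. With 5820 UMIs in all, these ratios rest on few molecules, and a gene without UMIs there says little.

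Mitochondria-poor control barcodes had the opposite nuclear content. The 8 barcodes had 1470 to 3986 UMIs, so they were as deep as the ribosomal-poor ones, yet MALAT1 had 1 UMI among 22301 and was absent from 7 of 8 barcodes. Its log2 ratio to deep control barcodes was -5.39 (-10.7 to -2.91) on that UMI, and NEAT1, also with 1 UMI, lay at -4.82 (-10.1 to -2.34). The nuclear-retained list had 9 UMIs in all, 404 against 4012 CPM (-3.31, -4.44 to -2.39). RNF220 had 0 UMIs where deep barcodes had 1359 CPM. Ribosomal protein mRNA was at 0.73 (0.69 to 0.76), abundant cytosolic mRNA at 0.89 (0.81 to 0.97), heat shock genes at 0.79 (0.62 to 0.96) and nuclear-encoded respiratory chain genes at 0.73 (0.62 to 0.84). Single genes at the high end were NXF3, an mRNA export factor, at 2.24, S100P, a calcium-binding protein, at 2.08, SSB at 1.88, TMSB4X at 1.503 and HMGB2, a chromatin protein, at 1.44. NXF3 had 41 UMIs there, of which 31 lay in 1 barcode of 3759 UMIs.

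In SP11 the mitochondria-poor barcodes kept MALAT1 in part of their number. The 33 barcodes held 166 MALAT1 UMIs, 1994 CPM against 961 CPM in deep SP11 barcodes, and 12 of 33 held none (36.4%, 20.4 to 54.9). The MALAT1 share followed the share of G2M genes, which are used around cell division, with a Spearman correlation of 0.65 over these 33 barcodes. It was 0.59 over all 83 shallow and 0.48 over the 769 deep SP11 barcodes, and -0.03 over the 90 shallow and 0.31 over the 963 deep control barcodes. All points of each value share a library and depth varies among them, so these are descriptions. NEAT1 had 7 UMIs, or 84.1 CPM, in the mitochondria-poor SP11 barcodes. Abundant cytosolic mRNA was at 0.58 (0.54 to 0.62), S100 genes at 1.00 (0.88 to 1.12) and interferon-stimulated genes at 0.98 (0.56 to 1.38). FNDC3B at -3.57 and RNF220 at -2.99 were among the lowest, and DLEU2 had 0 UMIs against 255 CPM.

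Intronic length separated these groups across the whole transcriptome. The 12081 genes with 50 or more UMIs and an entry in GENCODE 44 were split into 10 bins by intronic length, and the longest bin held 1208 genes with a median of 244782 intronic bases. That bin took 24.04% of UMIs in the ribosomal-poor control barcodes against 11.1% in deep ones, a log2 ratio of 1.11 (1.07 to 1.16). In SP11 it took 31.9% against 6.17%, a ratio of 2.37 (2.30 to 2.44). In mitochondria-poor barcodes it took 2.57% in control (-2.11, -2.23 to -1.99) and 2.61% in SP11 (-1.24, -1.30 to -1.18). The bin with the shortest introns, a median of 477 bases, ran the other way, at -1.28 in ribosomal-poor and 0.55 in mitochondria-poor control barcodes. With ribosomal protein genes, which formed the groups and have short introns, left out of the totals, the longest bin lay at 0.84 and 1.99 in ribosomal-poor and at -1.90 and -1.18 in mitochondria-poor barcodes of control and SP11. Counting reads in introns is the default of the Cell Ranger version used, but whether it was kept is not stated, so unspliced RNA and the mRNA of long genes cannot be told apart.

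**Figure D4:**
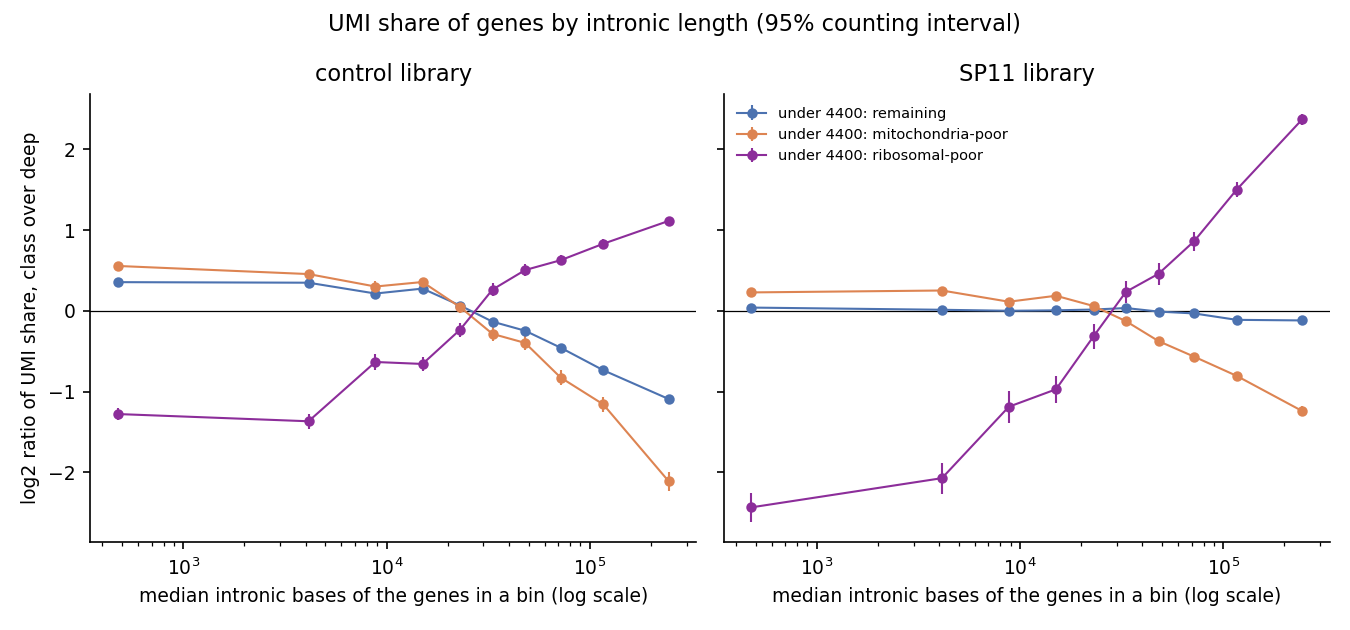
Log2 ratio of the UMI share of each of 10 bins of genes (y axis) in groups of shallow barcodes over deep barcodes of the same library, against the median intronic length of the bin (x axis, bases, log scale), with 95% counting intervals. The longest bin reaches 1.11 and 2.37 in ribosomal-poor barcodes of control and SP11, and -2.11 and -1.24 in mitochondria-poor ones.

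The remaining shallow barcodes differed from deep ones in control more than in SP11. In the 74 control barcodes, with a median of 774 UMIs, the nuclear-retained list lay at -1.04 (-1.29 to -0.80), the longest intronic bin at -1.09 (-1.14 to -1.05), ribosomal protein mRNA at 0.45 (0.43 to 0.47) and mitochondrial RNA at -0.50 (-0.55 to -0.46). FHIT at -2.82, WWOX at -2.49, CCDC26 at -2.36 and SCMH1 at -2.32 were the lowest of 597 ranked genes, and FHIT and WWOX are very long genes at common fragile sites. SNHG25, SDHB and MCTS1 were the highest, at 1.80, 1.51 and 1.51. In the 47 SP11 barcodes, with a median of 1066 UMIs, the same lists lay at 0.21 (-0.01 to 0.42) for nuclear-retained RNA, -0.12 (-0.16 to -0.08) for the longest bin, -0.04 (-0.06 to -0.02) for ribosomal proteins and 0.06 (0.03 to 0.10) for mitochondrial RNA. Across 1477 genes expected at 10 or more UMIs from either deep profile, the remaining control barcodes had a Spearman correlation of 0.73 with deep control CPM and 0.80 with deep SP11 CPM. Over 1984 genes the remaining SP11 barcodes had 0.59 with deep control and 0.92 with deep SP11. Genes are not independent replicates, and these values describe the libraries.

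Ferritin RNA was higher in shallow SP11 barcodes and nearly level in control. FTH1 lay at 8459 CPM in shallow and 3656 CPM in deep SP11 barcodes (log2 ratio 1.21, 1.14 to 1.28), and FTL at 26600 and 18389 CPM (0.53, 0.49 to 0.57). In control FTH1 lay at 1144 and 901 CPM (0.34, 0.09 to 0.59) and FTL at 13437 and 12496 CPM (0.10, 0.03 to 0.18). Over the bands of rising depth FTH1 was at 3338, 14681, 11682 and 6671 CPM in SP11. The shallowest band, with 41 UMIs and an interval of 2395 to 4528 CPM, could not be told from the deep level. The sums of the other bands were above it, but 12 barcodes described below lay in those bands. They had 914 to 4077 UMIs and held 1000 of the 1557 FTH1 UMIs in shallow SP11 barcodes. In the band from 800 UMIs they held 109, 27, 38 and 35 of its 242 FTH1 UMIs. In the band from 1500 they held 170, 50, 93, 62, 50 and 41 of 555, and in that from 3000 they held 284 and 41 of 719. The FTH1 UMIs left outside the 12 barcodes put none of these bands clearly above the deep level. The high values of these bands thus rested on the 12 barcodes. The list of other iron handling genes was not higher with ferritin, with -0.32 in control (-0.68 to 0.01) and -0.37 in SP11 (-0.66 to -0.10), where 1 of 5 measured members was higher and 3 lower by 1.5-fold. In SP11 9.93% of all measured genes were higher and 16% lower by that size. NCOA4, the receptor that takes ferritin to lysosomes, lay at 0.65 (-0.04 to 1.26), and TFRC, the transferrin receptor, at -0.91 (-2.12 to 0.08) on 8 UMIs.

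Ferritin shares of single shallow SP11 barcodes had a median of 2.54% (quartiles 1.75 and 3.53), against 1.80% (1.46 and 2.37) in deep ones. At 500 UMIs, FTH1 was found in 75.9% of shallow (65.3 to 84.6) and 61.4% of deep SP11 barcodes (57.8 to 64.8). A few barcodes held far more ferritin RNA than the others. With a limit chosen after the values were seen, 12 of 83 shallow SP11 barcodes held 5% or more ferritin UMIs (14.5%, 7.70 to 23.9), up to 31.7%, against 24 of 769 deep ones (3.12%, 2.01 to 4.61). In control 0 of 90 shallow and 2 of 963 deep barcodes did. With barcodes past this limit left out of both sums, which lowers ferritin by construction, the SP11 ratio was 0.21. These ferritin-rich barcodes had a median of 1981.5 UMIs, 9 of them were also mitochondria-poor, and 7 of 12 had no MALAT1 UMI. The nuclear-retained list lay at -2.06 (-3.12 to -1.18) in them, G2M genes at -1.70 (-2.13 to -1.30) and S phase genes at -0.91 (-1.31 to -0.55).

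**Figure D5:**
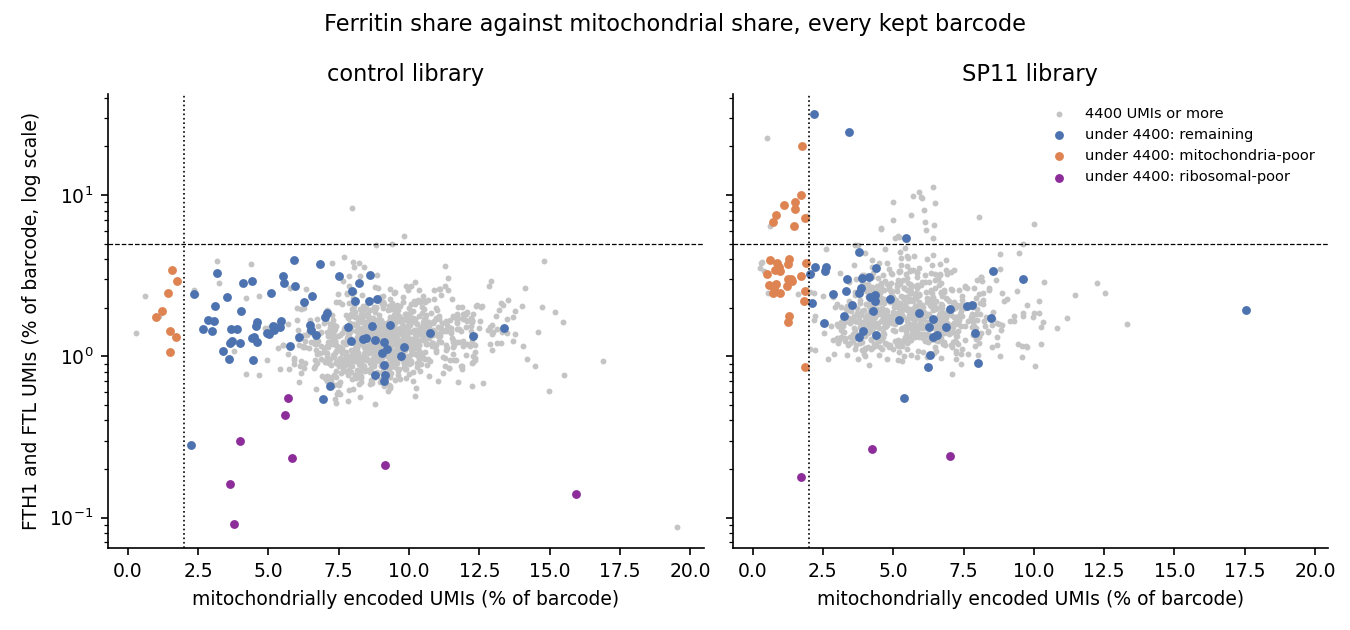
Share of FTH1 and FTL UMIs (y axis, percent, log scale) against the share of mitochondrially encoded UMIs (x axis, percent) for every kept barcode, with 5% ferritin as a dashed line and 2% mitochondrial as a dotted line. In SP11 12 shallow barcodes reach 5% ferritin or more and 9 of them lie left of the dotted line, while 0 shallow control barcodes do.

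Genes that the ferritin limit did not use were also high in the ferritin-rich barcodes. S100A8, a calcium-binding alarmin of myeloid cells, had 73 of its 90 shallow SP11 UMIs in these 12 barcodes, which held 25197 of 184059 UMIs, and was found in 10 of 12 of them against 9 of the other 71, without thinning. Its log2 ratio to deep SP11 barcodes was 3.76, and that of its partner S100A9 was 2.87. TYROBP, an adaptor of myeloid receptors, lay at 3.53, IL2RG, a cytokine receptor chain, at 3.23 and TIMP1, an inhibitor of matrix proteases, at 3.01. As lists, interferon-stimulated genes lay at 2.27 (1.77 to 2.72), monocyte or macrophage markers at 2.25, and NF-kB targets at 1.41 (1.00 to 1.79). The marker value rested on 179 of the 368 UMIs of that list in all shallow SP11 barcodes. MMP1, a collagenase, and SERPINB2, a plasminogen activator inhibitor, were higher still at 5.13 and 4.44, but 1 barcode of 1935 UMIs held 73 of the 86 MMP1 and 47 of the 65 SERPINB2 UMIs of all shallow SP11 barcodes. T cell markers had 1 UMI in the 12 barcodes and B cell, erythroid and fibroblast or epithelial markers had 0.

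The summed azurophil granule genes, which encode proteases and other contents of myeloid granules, went in opposite directions. The list lay at 4843 CPM in shallow and 6166 CPM in deep control barcodes (-0.35, -0.47 to -0.23), with 0 of 9 measured members higher and 3 lower by 1.5-fold. In SP11 it lay at 5895 and 4999 CPM (0.24, 0.15 to 0.32), with 1 of 12 higher and 0 lower. Among all measured genes 14.7% were higher and 21.2% lower in control, and 9.93% and 16% in SP11. The count of higher members in SP11 was thus near the share over all genes, and the member medians were -0.41 in control and 0.22 in SP11. ELANE, neutrophil elastase, had 100 UMIs in shallow control barcodes, 866 against 1112 CPM (-0.36, -0.66 to -0.08), and 86 in SP11, 467 against 477 CPM (-0.03, -0.35 to 0.28). AZU1 lay at -0.41 (-0.91 to 0.05) and 0.28 (-0.42 to 0.90), and PRTN3 at 0.33 (-0.17 to 0.78) and -0.47 (-1.39 to 0.31), so each of these intervals spanned 0. SRGN, the proteoglycan that packs granule contents, lay at -0.64 (-0.89 to -0.41) in control and 0.24 in SP11, and CTSG, a granule protease, at 0.41 (0.07 to 0.74) in SP11. With ribosomal-poor barcodes left out, the list lay at -0.24 in control and 0.28 in SP11.

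Endoplasmic reticulum chaperones were lower in shallow control barcodes and near level in SP11. In control the chaperone list lay at 1819 against 2923 CPM (-0.68, -0.89 to -0.49), with 0 of 7 measured members higher and 6 lower. HSPA5, the main chaperone of this compartment, had 3 UMIs in shallow control barcodes, 26.0 against 164 CPM (-2.65, -4.93 to -1.11), and HSP90B1 lay at -1.37 (-2.24 to -0.62). In SP11 the list lay at 0.05 (-0.06 to 0.16), with 0 of 12 members past 1.5-fold in either direction, HSPA5 at 0.53 (0.15 to 0.90) and HSP90B1 at 0.40 (0.13 to 0.65). The summed heat shock genes driven by HSF1 were at 0.35 (0.27 to 0.44) in control and 0.20 (0.14 to 0.26) in SP11. By member, 1 of 12 was higher and 1 lower by 1.5-fold in control, and 0 of 14 higher and 1 lower in SP11, with medians of 0.29 and 0.07. For both lists the shares over all measured genes were 14.7% higher and 21.2% lower in control, and 9.93% and 16% in SP11. S100 genes were at 0.51 (0.36 to 0.65) and 0.55 (0.46 to 0.64), led by S100A10 at 1.22 (0.41 to 1.93) in control and S100A8 at 1.19 (0.87 to 1.499) in SP11. Of the 90 S100A8 UMIs behind that value, 73 lay in the ferritin-rich barcodes.

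Cell cycle and death lists were close to the deep level. G2M genes lay at -0.05 (-0.16 to 0.05) in control and at -0.12 (-0.21 to -0.04) in SP11. Here 4 of 27 measured members were higher and 5 lower by 1.5-fold in control, and 1 of 36 higher and 6 lower in SP11. The shares over all measured genes were 14.7% higher and 21.2% lower in control, and 9.93% and 16% in SP11. Apart from the few higher members in SP11, the counts were near these shares. S phase genes lay at 0.15 (0.03 to 0.28) and -0.01 (-0.11 to 0.09), and apoptosis effectors at 0.25 (-0.03 to 0.52) and 0.15 (-0.07 to 0.37). Replication-dependent histone genes lay at -0.29 (-0.55 to -0.04) and -0.05 (-0.23 to 0.11), and cholesterol synthesis genes at -0.29 (-0.53 to -0.07) and 0.21 (-0.03 to 0.44). Of the smaller lists, immediate early genes lay at 0.16 (-0.41 to 0.67) and -0.54 (-1.02 to -0.09), NF-kB targets at 0.28 (-0.13 to 0.66) and 0.10 (-0.13 to 0.33), and interferon-stimulated genes at -0.14 (-0.77 to 0.42) and 0.57 (0.25 to 0.88). Of the 88 UMIs behind the last of these values, 39 lay in the ferritin-rich barcodes.

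Among the 593 control and 1023 SP11 genes with 30 or more shallow UMIs observed or expected, the ends of the ranking differed between the libraries. In control SDHB, RAB11A of vesicle transport at 1.14 (0.60 to 1.63), MALAT1, HSD17B10 at 1.09 (0.52 to 1.60) and the proteasome subunit PSMB7 at 1.08 (0.54 to 1.56) were highest, and CCDC26 at -1.81 (-2.62 to -1.11), CERS6 at -1.69 (-2.75 to -0.81), HLA-B at -1.59 (-2.54 to -0.78) and MT-ATP8 lowest. In SP11 MMP1 and SERPINB2 were highest at 2.30 (1.96 to 2.62) and 1.89 (1.503 to 2.25), but without the barcode of 1935 UMIs they lay at -0.41 (-1.33 to 0.37) and 0.05 (-0.71 to 0.72). Next came GYG1, which starts glycogen chains, at 1.24 (0.69 to 1.73), FTH1 and MYL12A, a myosin light chain, at 1.21 (0.74 to 1.66). MZT2B at -1.70 (-2.66 to -0.89), NENF at -1.46 (-2.24 to -0.78), HUWE1, a ubiquitin ligase, at -1.37 (-2.32 to -0.56) and TOP2A, a topoisomerase, at -1.21 (-1.93 to -0.58) were lowest. CCDC26 was low in SP11 too, at -1.10 (-2.23 to -0.17), and HUWE1 in control, at -1.33 (-2.33 to -0.49).

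At the same depth, shallow barcodes varied among themselves more than deep ones in mitochondrial, ribosomal protein and nuclear-retained UMIs. After thinning to 500 UMIs, the variance over the mean was 7.76 for mitochondrial UMIs in shallow and 2.83 in deep control barcodes, and 12.6 and 3.63 in SP11. Counting error alone gives close to 1 for a list with a small share of the UMIs. At a fixed depth it gives less for a list with a large share, such as ribosomal protein genes. For ribosomal protein UMIs it was 13.9 and 3.59 in control and 9.83 and 2.84 in SP11, and for nuclear-retained UMIs 6.63 and 1.28 in control and 3.18 and 1.34 in SP11. Ferritin stood apart between the libraries, at 2.63 and 2.39 in control and 30.5 and 6.40 in SP11. G2M genes varied about as much in shallow as in deep barcodes, at 1.70 and 2.09 in control and 1.87 and 1.72 in SP11. In the remaining shallow barcodes alone, mitochondrial, ribosomal protein and nuclear-retained UMIs had 4.91, 5.72 and 2.83 in control. In SP11 they had 8.18, 3.34 and 1.97. These values lay below those of all shallow barcodes and above the deep ones, so part of the spread came from mixing the groups. The limits that formed the groups narrow the first 2 by construction. The number of genes seen in 500 UMIs had a median of 353 in shallow and 389 in deep control barcodes, and 365 and 377 in SP11. It was 431.5 and 428 in the ribosomal-poor barcodes and 344 and 350 in the mitochondria-poor barcodes of control and SP11.

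Several genes that differed between the deep barcodes of the libraries differed the same way between their shallow barcodes. FTH1 in SP11 over control had a log2 ratio of 2.89 (2.63 to 3.15) among shallow and 2.02 (1.99 to 2.05) among deep barcodes. Of the 1557 shallow SP11 UMIs behind it, 1000 lay in the ferritin-rich barcodes, and the larger ratio among shallow barcodes rests on those. INSIG1, a sterol sensor, lay at -2.48 (-4.08 to -1.12) and -3.21 (-3.40 to -3.03), AZU1 at -1.53 (-2.37 to -0.72) and -2.22 (-2.32 to -2.12), and ELANE at -0.89 (-1.32 to -0.46) and -1.22 (-1.27 to -1.17). S100A8 had 90 UMIs in shallow SP11 and 0 in shallow control barcodes, which is at least 18.8-fold higher against the 3 counts that a 0 allows, with the SP11 count taken without error. Of those 90 UMIs, 73 lay in the ferritin-rich barcodes, so the fold does not describe the other shallow SP11 barcodes. Endoplasmic reticulum chaperones lay at 1.03 (0.81 to 1.26) among shallow and 0.30 (0.28 to 0.32) among deep barcodes, and HSPA5 at 3.70 (2.08 to 6.01) and 0.51 (0.43 to 0.59). Granule genes lay on opposite sides, at 0.28 (0.13 to 0.43) among shallow and -0.30 (-0.32 to -0.29) among deep barcodes. These are ratios of 1 library to 1 library, and treatment and library cannot be told apart.

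Some of the named genes were too sparse to compare. HMOX1, heme oxygenase, had 0 UMIs in shallow control and 4 in shallow SP11 barcodes, RAC3 had 3 and 0, and PLPPR3 had 1 and 0. Of the nuclear-retained list, 6 of 8 genes were measured in control, with 2 higher and 1 lower by 1.5-fold, and 5 in SP11, with 1 higher and 1 lower. Over all measured genes 14.7% were higher and 21.2% lower in control, and 9.93% and 16% in SP11. KCNQ1OT1 lay at 1.09 (0.08 to 1.93) and PVT1 at -0.72 (-1.53 to -0.02) in control, and FTX at -0.53 (-1.26 to 0.12) in SP11.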

How the data were processed

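Droplet-based single-cell RNA-seq was analysed from 1 untreated and 1 SP11-treated library, grouped by the treatment given in the labels. For each library the authors deposited raw UMI counts for 36601 genes by barcode, without normalization. Cell Ranger 7.1.0 is named in the file headers, and hg38 (GRCh38) in the submitters' processing notes. Barcodes were kept with 200 or more genes and at most 20% mitochondrially encoded UMIs, as in the study's methods, which give fewer kept control cells than these limits leave and state no further filter. Shallow barcodes were those with fewer than 4400 UMIs. The members, the 26 gene lists and the rule for named genes were chosen with earlier results of these data known, and support nothing by themselves.

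UMIs were summed per library over shallow and over deep barcodes and divided by the sum's total to give CPM. Log2 ratios carry a 95% interval computed from the exact Clopper-Pearson bounds on how UMIs divide between the sums, CPM values have exact Poisson intervals, and shares of barcodes exact binomial ones. A sum of 0 UMIs allows up to 3 counts. With 1 library per group no p-value was computed. Named genes are the 4 markers (FTH1, FTL, MALAT1, NEAT1), 8 further genes (ELANE, AZU1, PRTN3, S100A8, HMOX1, RAC3, PLPPR3, INSIG1), up to 2 members from each end of each list and the 10 highest and 10 lowest genes per library with 30 or more UMIs observed or expected. GAPDH, LDHA, NXF3, CCDC26, MMP1 and SERPINB2 were also followed after their values were seen, as were the genes ranked within groups of barcodes. A gene that the rule takes is not reported here. Barcodes were thinned without replacement to 500 UMIs for equal depth. Doublets were called with Scrublet in scanpy 1.11.5, on all kept barcodes of each library, and kept in the main values. Positions and intronic lengths came from GENCODE 44 on GRCh38, which holds 12081 of 12115 genes (99.7%). Python 3.11.15, numpy 2.4.6, scipy 1.17.1, edgeR 4.0.16 and DESeq2 1.42.0 (R 4.3.3) were used, the last tools for scaling factors alone. The interval code was tested on simulated data. The alternatives were other scalings, weights, filters, depths and bins, and, added after the data were seen, sums without ribosomal-poor or ferritin-rich barcodes, MMP1 and SERPINB2 without their highest barcode, and intronic bins without ribosomal protein genes.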

Additional observations from a re-analysis of the deposited data

Results flagged for a closer look

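Several results lay on opposite sides in the 2 libraries, in shallow against deep barcodes of the same library, with intervals on both sides away from 0. With 1 library per group, none of these differences was tested. The azurophil granule list had a log2 ratio of -0.35 in control and 0.24 in SP11, and the monocyte or macrophage marker list -0.39 in control and 0.42 in SP11. The SP11 value of the marker list includes the 12 ferritin-rich barcodes, which held a far larger part of its UMIs than of all shallow UMIs. The marker UMIs left in the other 71 shallow SP11 barcodes put those below the deep CPM. For this list the opposite sides thus rest on the 12 barcodes. Among named genes of the endoplasmic reticulum, HSP90B1 lay at -1.37 in control and 0.40 in SP11, and HSPA5 at -2.65 and 0.53. SRGN, the granule proteoglycan, lay at -0.64 and 0.24. The opposite order held for RPS2, at 0.26 in control and -0.70 in SP11, and for YBX1, an RNA-binding protein, at 0.28 and -0.50.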

How the results depend on the processing

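Values here are log2 ratios of shallow over deep sums unless counts are named, and the cause of a move was not tested where the alternative's construction does not show it. Of the values for the main lists and counts under alternatives, 91 stayed within the counting interval of the main value (for counts, within 1.5 times), 50 moved and 5 reversed. Nuclear-retained RNA in control reversed to -0.094 with equal weight per barcode, to -0.55 under 2000 UMIs and to -1.33 without barcodes under 6% ribosomal protein UMIs, and moved to 0.39 at a mitochondrial maximum of 10% and to 0.86 with a minimum of 500 genes. In SP11 it moved to 0.91 with equal weight, 1.16 under 2000 UMIs, 0.29 without barcodes under 6% ribosomal protein UMIs and 0.68 without shallow barcodes of 5% or more ferritin, or 0.73 without shallow and deep ones. Ribosomal protein RNA in SP11 reversed to -0.0020 with equal weight and to -0.059 under 2000 UMIs, and moved to 0.020 with totals without mitochondrial genes and 0.092 without ribosomal-poor barcodes. In control it moved to 0.26 with TMM and 0.26 with DESeq2 scaling, 0.24 with totals without mitochondrial genes, 0.37 with equal weight, 0.46 under 2000 UMIs, 0.37 at 10%, 0.23 with 500 genes and 0.52 without ribosomal-poor barcodes. Mitochondrial RNA in control moved to -0.74 without its genes in the totals, -0.64 with equal weight, -0.74 at 10%, -0.77 with 500 genes and -0.79 without ribosomal-poor barcodes, and in SP11 to -0.67 with equal weight, -0.85 under 2000 UMIs and -0.51 without ferritin-rich barcodes, shallow alone or shallow and deep. Ferritin in control moved to 0.20 with equal weight, 0.24 under 2000 UMIs, 0.20 at 10%, 0.034 with 500 genes and 0.35 without ribosomal-poor barcodes, and in SP11 to 0.81, 1.18 and 0.71 under equal weight, under 2000 UMIs and without ribosomal-poor barcodes, to 0.057 without the ferritin-rich barcodes of the shallow sum alone, and to 0.21 without those of both sums, a limit set on ferritin itself. MMP1 in SP11 reversed to -0.41 without its highest barcode. Granule genes in SP11 moved to 0.13 with equal weight and 0.095 under 2000 UMIs. Genes at least 1.5-fold higher in control numbered 380, 2944 with no count minimum and 87 at 30 UMIs, and genes lower 547, 2426, 75, 306 under 2000 UMIs and 306 with 500 genes. In SP11 genes higher numbered 348, 2178, 73 and 189 under 2000 UMIs, and genes lower 559, 2238, 66 and 89. Scaling by TMM or DESeq2 shifted ratios by -0.03 in control and by 0.00 and 0.01 in SP11. No paired analysis was possible because each group is 1 library and no result comes from a test.

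The limits of these values are depth and the absence of replicates. Shallow barcodes held 115424 UMIs in control and 184059 in SP11, and a gene with 0 UMIs in them has a limit of 26.0 and 16.3 CPM, while the 3 ribosomal-poor SP11 barcodes held 5820. Free RNA was not measured, and the part of free RNA, cell size and loss of RNA in any value was not tested.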

Other observations

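AL121936.1 had 24 UMIs in the remaining SP11 barcodes, all in 1 barcode, and 2 UMIs in the 769 deep SP11 barcodes. The SP11 barcode with the highest ferritin share, 31.7%, had 914 UMIs in 359 genes, of which 109 were FTH1 and 181 FTL, and 25.6% of its UMIs came from ribosomal protein genes. A second barcode, of 1817 UMIs, had 170 FTH1 and 274 FTL UMIs.

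Total UMIs and the mitochondrial share had a Spearman correlation of -0.39 over the 90 shallow and -0.24 over the 963 deep control barcodes, and of -0.07 over the 83 shallow and -0.05 over the 769 deep SP11 barcodes. All points of each value share a library, and the share's denominator is the total itself.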
